A study of Bos taurus with 4 samples.

Results

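The genes described here encode proteins of the sperm tail: ODF1 and ODF2 of the outer dense fibres, AKAP3, AKAP4, ROPN1 and FSCB of the fibrous sheath, and SMCP of the capsule around the sperm mitochondria. All sample probes of the array that carry 1 of these 7 gene names were taken, which gave 11 probes on 13 spots, out of 51282 probes on 61657 spots and 32429 gene names for the whole array. Spermatozoa of Murrah buffalo bulls were compared between 2 high-fertile pools and 2 low-fertile pools. Bulls with an adjusted field conception rate at least 1 standard deviation above the mean of the bulls evaluated had been classed as high-fertile, and those at least 1 standard deviation below it as low-fertile. Each pool held equal amounts of sperm RNA from 2 bulls, taken from spermatozoa selected on Percoll, and each bull was a breeding bull, with no treatment stated and its age not given in the sources used here. Each pool was hybridized to 1 array with a single dye, and the array carries cattle sequences, so buffalo RNA was read with probes of a related species, and the labels name the organism as Bos taurus while describing the sperm as buffalo. Any mismatch between the species bears on the signal of a probe and was not tested.

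The outer dense fibres are stiff cables that run beside the microtubules of the axoneme along much of the tail, and the fibrous sheath is a sleeve around the axoneme further down. The sheath carries glycolytic enzymes and anchors protein kinase A, the kinase that responds to cyclic AMP during the gain of motility. Genes for these structures are transcribed in spermatids, and mature spermatozoa no longer transcribe, so their RNA in ejaculated sperm is a remnant of spermatid transcription.

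Of the 7 genes, only ODF1 was well above background in every pool, and its fold difference between the groups was 1.13. Its probe was 1 of the 11 to reach that mark in all pools, as 24.5% of all probes of the array did. ODF2 was well above background in 3 of 4 pools at 1 of its 4 probes. The other 5 genes had no probe well above background on any array. Neither of the 2 probes that could be tested passed an adjusted p of 0.05 in limma, a linear model fitted across all tested probes, where 26.8% of all 21033 tested probes did, 17.6% with lower signal under low fertility and 9.22% with higher. At an unadjusted p under 0.05 limma gave 0 of the 2 and 41.6% of all tested probes. The methods' t-test called 0 of all tested probes after adjustment. In these pools of cells, fewer cells with a transcript and less of it per cell cannot be told apart.

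The probes that the results turn on are shown from 5′ to 3′, since they decide what was measured. The first ODF2 lines are whole probes of 60 bases that reach over 1066, 193 and 1009 bases of the cattle genome Btau_3.1, more than their own length. Capitals in the third ODF2 line mark 16 bases shared with a probe for another gene, PCGF2. Of the probe of ODF2 that was well above background and of the ODF1 probe, the first 30 bases are shown. The AKAP3 lines are stretches of 30 bases from 2 probes at overlapping positions, with capitals at the bases that differ.
ODF2, A_73_P277531: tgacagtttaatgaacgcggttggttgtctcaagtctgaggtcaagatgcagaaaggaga
ODF2, A_73_P262656: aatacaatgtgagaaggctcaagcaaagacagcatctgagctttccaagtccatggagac
ODF2, A_73_P050791: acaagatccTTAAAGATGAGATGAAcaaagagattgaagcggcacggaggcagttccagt
ODF2, A_73_117291: acttcctttttcttggctgccgctttctga
ODF1, A_73_112886: tgtttctctcccccttcccatggcccgtgt
AKAP3, A_73_P110781: gacgtaGaataGaaattacagataaatgGc
AKAP3, A_73_P050946: gacgtaAaataAaaattacagataaatgCc

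The AKAP3 probes overlap by 54 bases, of which 3 differ. Counted from 1 at the 5′ end of A_73_P110781, with the base of that probe first, the differences are G31A, G36A and G53C. The RefSeq accession that the array gives for each of the 7 genes carries the same symbol in the annotation of the cattle assembly ARS-UCD2.0. In that annotation 4 of the 7 genes overlap another annotated gene: ODF1, SMCP and FSCB a long non-coding RNA each, and ROPN1 a pseudogene. GC content was 45.0% at all 5 probes of ODF1 and ODF2 and at or above 35.0% at the other probes.

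All 4 arrays lay on 1 slide and were scanned together. Each fertility group had a row and columns of its own, so slide row or column and fertility group cannot be told apart. The 75th percentile of each array, to which values were scaled, was a processed signal between 32.6 and 37.1. The array of low-fertile pool 2 had 13033 probes well above background, against 23228 to 25642 on the others, and the median of its 308 negative-control spots was 6.36, against 3.35 to 3.95. Of 15 spermatid and sperm markers on the array, 6 were tested by their brightest probe and PRM1, a protamine that packs sperm DNA, was higher in the low-fertile pools (log2 difference 0.67, adjusted p = 0.0231, limma). IZUMO1, CRISP2, HSPA1L and LDHC of that list were well above background on no array. Of 10 leukocyte markers, 9 were tested and PTPRC, the common leukocyte antigen, was higher (log2 difference 0.78, adjusted p = 0.0160, limma), with processed signals of 6981 and 7126 for high fertility against 11503 and 11388 for low fertility. Of the 9 tested markers 8 were above 0 by their brightest probe, with a median log2 difference of 0.38. Probes of some genes disagreed in size or sign. A second tested probe was at a log2 difference of 0.18 for PTPRC and at 0.14 for CD4. For CD14, whose brightest probe was at 0.40, 2 further probes were at -1.08 and 0.77. Second probes of ITGAM and CSF1R, at 0.46 and 0.33, had the sign of the brightest, at 0.14 and 0.42. The brightest CD4 probe was at 1087 and 1285 for high fertility against 969 and 674 for low fertility (log2 difference -0.46, adjusted p = 0.121, limma). The summed normalized signal of the leukocyte list, in which PTPRC and LYZ are the brightest, was 579 to 607 in the high-fertile pools and 794 to 868 in the low-fertile pools, and CD3E was well above background on no array. The same sum for the sperm list was 16.3 to 20.9 and 18.8 to 21.8, for epithelial markers 25.2 to 25.4 and 26.9 to 29.97, for red cell markers 8.38 to 12.1 and 10.1 to 11.8, and for Sertoli and Leydig cell markers 19.5 to 22.1 and 20.9 to 23.9. In the sperm list 2 untested genes stood high on a single array each, PRM2 at 179.9 in high-fertile pool 1 and 9.58 to 14.6 in the others, and PRM3 at 168 in low-fertile pool 1 and 10.3 to 16.07 in the others. By gene, 25.9% of all genes tested by their brightest probe were called. Red cells gave 1 called gene of 3 tested, HBB, higher at an adjusted p of 0.0118 in limma. HBB was well above background in only 1 high-fertile pool and was tested through the low-fertile pools. Sertoli and Leydig cells gave 1 of 7 (STAR, log2 difference 0.79) and epithelium 0 of 6. The 7 Sertoli and Leydig cell genes ran from -0.68 (WT1, not called) to 0.79, with 4 above 0 and 3 below. The part of other cells in the values below was not tested.

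**Figure D1:**
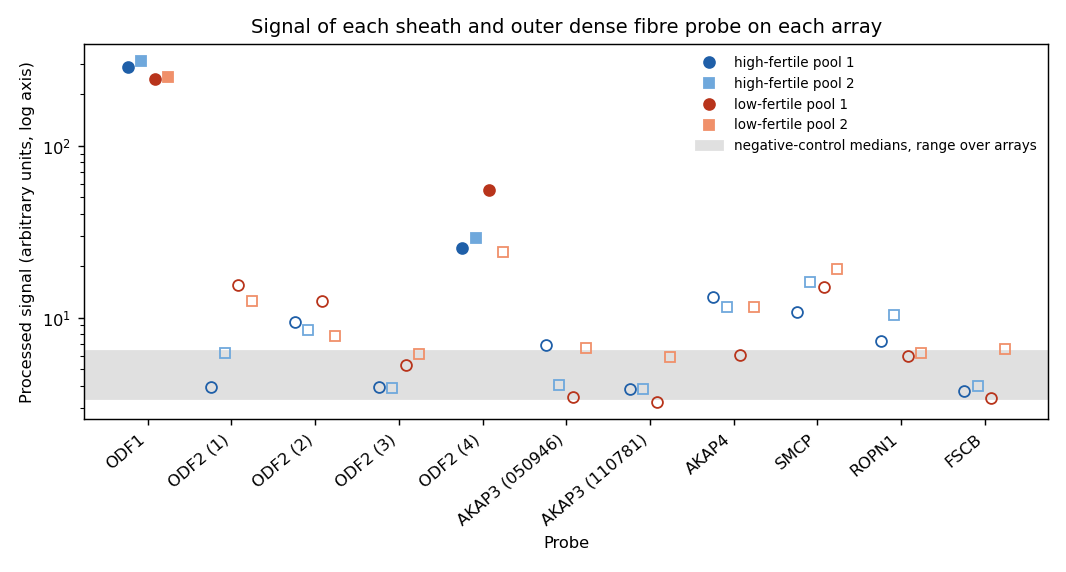
Processed signal in arbitrary units on a log axis for each of the 11 probes on each of the 4 arrays, with filled symbols for values well above background, ODF2 probes numbered along the gene and AKAP3 probes by the end of their names. The grey band runs from 3.35 to 6.36, the range of the negative-control medians of the arrays, and only ODF1 is filled in every pool. Brightness of different probes is not a comparison of transcript amounts.

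ODF1 encodes a small cysteine-rich protein that is the main building block of the outer dense fibres. Its probe lies on chromosome 14 of Btau_3.1, chr14:60023794-60023853, on the minus strand, and was printed on 2 spots of each array. The processed signal, taken as the geometric mean of the spots, was 285 and 310 with high fertility. With low fertility it was 244 and 251. The groups did not overlap, with low-fertile values beneath, an arrangement found at 35.5% of all tested probes.

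On the normalized log2 scale, ODF1 was at 2.96 and 3.06 with high fertility and at 2.72 and 2.94 with low fertility. The log2 difference of low-fertile minus high-fertile was -0.18 (standard error 0.157, 95% interval -0.57 to 0.21, adjusted p = 0.429, limma). A reduction beyond a log2 difference of -0.57 or an increase beyond 0.21 thus lies outside the interval. With 2 pools a group, the smallest p of a two-sided exact permutation test is 0.333.

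The 2 ODF1 spots give a measure of technical spread. On the log2 scale they differed by 0.28 and 0.33 for high fertility and by 0.05 and 0.11 for low fertility. These gaps on the high-fertile arrays were larger than the difference between the groups. Read from the spots separately, that difference was -0.13 at the first spot and -0.23 at the second. The error that the scanner software assigns to each spot was 10.1% to 10.4% of the signal.

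The 2 background and scaling choices below moved ODF1 past the threshold. With normexp background correction, which models the background of each spot and here adds an offset of 50 to every signal, the log2 difference was -0.26 (adjusted p = 0.0151, limma). Scaled to the 7 spike-in probes in place of the 75th percentile it was -0.55 (adjusted p = 0.0326, limma), but that scaling moved the median of all tested probes to -0.38, and relative to this median ODF1 was at -0.17. The second ODF1 spot of high-fertile pool 1 had 3 of its 6 nearest spots off by over 2 log2 units, and without that spot the difference was -0.25 (adjusted p = 0.282, limma).

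Among 6247 named genes well above background on all arrays, those whose pattern over the 4 arrays was most like that of ODF1 were SEC24C, APOBR and DHX8. Their root mean square distances from ODF1, after each probe was centred on its own mean, were 0.0126, 0.0160 and 0.0170 log2 units over 4 arrays. They were picked as the closest of the 6247, and the distances lie below the gaps of 0.05 to 0.33 between the ODF1 spots. A link between these genes was not tested.

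ODF2 encodes a coiled-coil protein of the outer dense fibres that also occurs at centrioles of other cells. The array holds 4 probes for it on the plus strand of chromosome 11. The fourth probe along the gene, A_73_117291 at chr11:102710121-102710180, was the only one well above background on any array. There the processed signal was 25.3 and 29.1 with high fertility. It was 55.4 in low-fertile pool 1, while low-fertile pool 2 gave 24.0 and was not well above background. The groups overlapped, since 1 low-fertile pool was the highest of the 4 and the other the lowest by signal.

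On the normalized log2 scale the fourth ODF2 probe was at -0.44 ± 0.13 (SD, n = 2) with high fertility and at 0.07 ± 0.72 (SD, n = 2) with low fertility. The difference between these means was 0.51 (standard error 0.342, 95% interval -0.34 to 1.37, adjusted p = 0.307, limma). The value rested on low-fertile pool 1. Leaving out low-fertile pool 2 gave 1.02 (adjusted p = 0.0266, limma), and leaving out low-fertile pool 1 gave 0.00025 (adjusted p = 0.999, limma). In these fits the lone low-fertile pool is assumed to vary like the other group. With normexp the difference was 0.10, and with spike-in scaling it was 0.14, or 0.52 relative to the median of all tested probes. The error assigned by the scanner software was 12.2% of the signal for the brighter low-fertile pool and 33.8% for the dimmer.

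The first ODF2 probe, A_73_P277531 at chr11:102695626-102696691, did not clear background well in any pool. It gave 3.97 and 6.23 with high fertility and 15.4 and 12.5 with low fertility. The groups did not overlap, with low-fertile values on top. The log2 difference of 1.57 was the widest among the 11 probes, but the value of high-fertile pool 1 was a surrogate that the scanner software writes for spots not above background. Fitted without any filter on dim probes, its unadjusted p was 0.00555 and its adjusted p 0.140 in limma. Of the 11 probes it was the only 1 with an unadjusted p under 0.05 in that fit, against 18.1% of all probes, and none passed the adjusted threshold, which 0 of 51282 probes did.

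The second ODF2 probe, A_73_P262656 at chr11:102703048-102703240, had a processed signal of 9.45 and 8.47 with high fertility and 12.5 and 7.80 with low fertility. Its log2 difference was 0.23, and the groups overlapped. The third probe, A_73_P050791 at chr11:102708871-102709879, gave 3.95 and 3.92 with high fertility and 5.28 and 6.17 with low fertility, with surrogate values on 3 of the 4 arrays. Its log2 difference was 0.62 and its groups did not overlap, but both high-fertile values were surrogates. The PCGF2 probe with which it shares 16 bases was well above background on all 4 arrays, at 91.9 and 85.3 with high fertility and 204 and 205 with low fertility. The array holds 2 further PCGF2 probes without that run, at 241 and 271 with high fertility and 166 and 156 with low fertility for the one, and at 71.4 and 70.3 with high fertility and 61.8 and 77.7 with low fertility for the other.

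**Figure D2:**
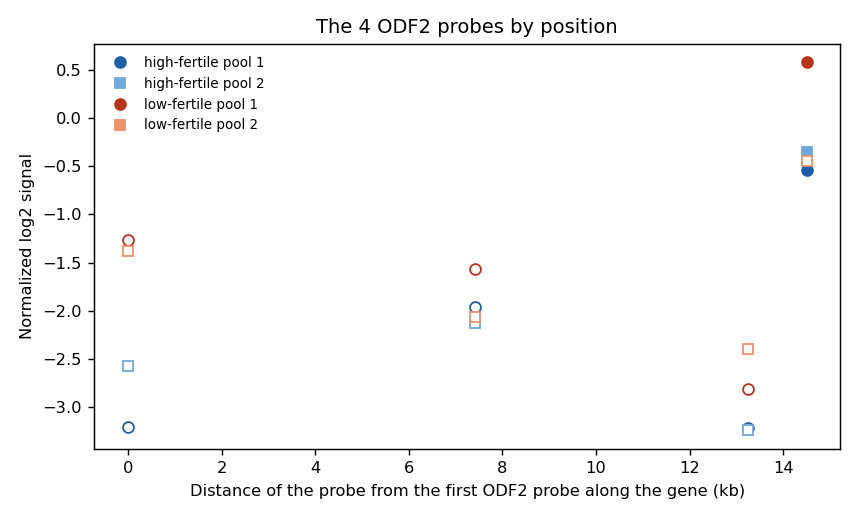
Normalized log2 signal (y axis) of the 4 ODF2 probes on the 4 arrays against the distance of the probe from the first ODF2 probe along the gene in kb (x axis), with filled symbols for values well above background. Low-fertile pool 1 stands above the other pools at the last probe, at 0.58 against -0.54, -0.35 and -0.44, and both low-fertile pools stand above both high-fertile pools at the first.

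None of AKAP3, AKAP4, ROPN1 and FSCB was well above background in any pool. AKAP4, an X-linked gene for the most abundant protein of the sheath and an anchor of protein kinase A, has its probe at chrX:54591274-54591333, on 2 spots. High-fertile pools gave a processed signal of 13.2 and 11.51, and low-fertile pools 6.03 and 11.48. It was marked on all 4 arrays as positive and significant, a weaker call of the scanner software than well above background. On each array 32226 to 42556 of all 51282 probes carried that mark. The AKAP4 groups overlapped on the normalized scale, though not by processed signal, at a log2 difference of -0.48. The 2 spots of an array differed by 0.08 to 0.69 log2 units.

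AKAP3, which joins AKAP4 in the sheath, has its 2 probes at chr5:112390233-112390292 and chr5:112390239-112390292. At A_73_P050946 the processed signal was 6.93 and 4.07 with high fertility and 3.48 and 6.70 with low fertility, with the positive and significant mark on 1 array only. At A_73_P110781 it was 3.86, 3.84, 3.22 and 5.91 in the same order, and all of these were surrogate values. Between 51.6% and 96.4% of the negative-control spots of an array were at or above the signal of A_73_P110781. The log2 differences were -0.05 and 0.27.

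ROPN1, or ropporin, binds AKAP3 in the sheath and has its probe at chr1:69461497-69461556, on the minus strand. Its processed signal was 7.31 and 10.4 with high fertility and 5.95 and 6.20 with low fertility, the last a surrogate value. The low-fertile pools lay below the high-fertile pools at a log2 difference of -0.44. It carried the positive and significant mark in 3 pools.

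FSCB binds CABYR, a calcium-binding protein of the sheath, and has its probe at chr21:54730481-54730540, on the minus strand. Here the high-fertile pools read 3.73 and 4.02 and the low-fertile pools 3.39 and 6.54, all of them surrogate values. The log2 difference of 0.37 is therefore one between surrogates. The highest value came from low-fertile pool 2, where the negative-control median was also the highest.

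SMCP encodes a cysteine-rich protein of the mitochondrial capsule in the midpiece and has its probe at chr3:19300640-19300699, on the minus strand. Its processed signal was 10.8 and 16.03 with high fertility and 15.1 and 19.2 with low fertility. It carried the positive and significant mark on all 4 arrays, and at most 0.649% of the negative-control spots of an array reached its signal. The same maximum held for AKAP4, and for ROPN1 outside low-fertile pool 2. The SMCP groups overlapped at a log2 difference of 0.46.

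Over the 9 probes that were well above background on no array, processed signals ran from 3.22 to 19.2, and 3 probes had lower and 6 had higher values in the low-fertile pools. Of all 21877 probes well above background on no array, 64.0% had the higher mean in the low-fertile pools. FSCB, the third ODF2 probe and A_73_P110781 of AKAP3 were among the 6, with surrogate values in low-fertile pool 2. The groups did not overlap at 3 of the 9 dim probes, against 30.1% of those 21877 probes. Of all probes of the array, 41.0% could be tested and 42.7% were well above background on no array. Of the 11 probes, 5 had a surrogate value on the array of low-fertile pool 2, and 2 had one on all 4 arrays. The deposited normalized table differed from the recomputed values of these 11 probes by at most 0.031 log2 units.

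**Figure D3:**
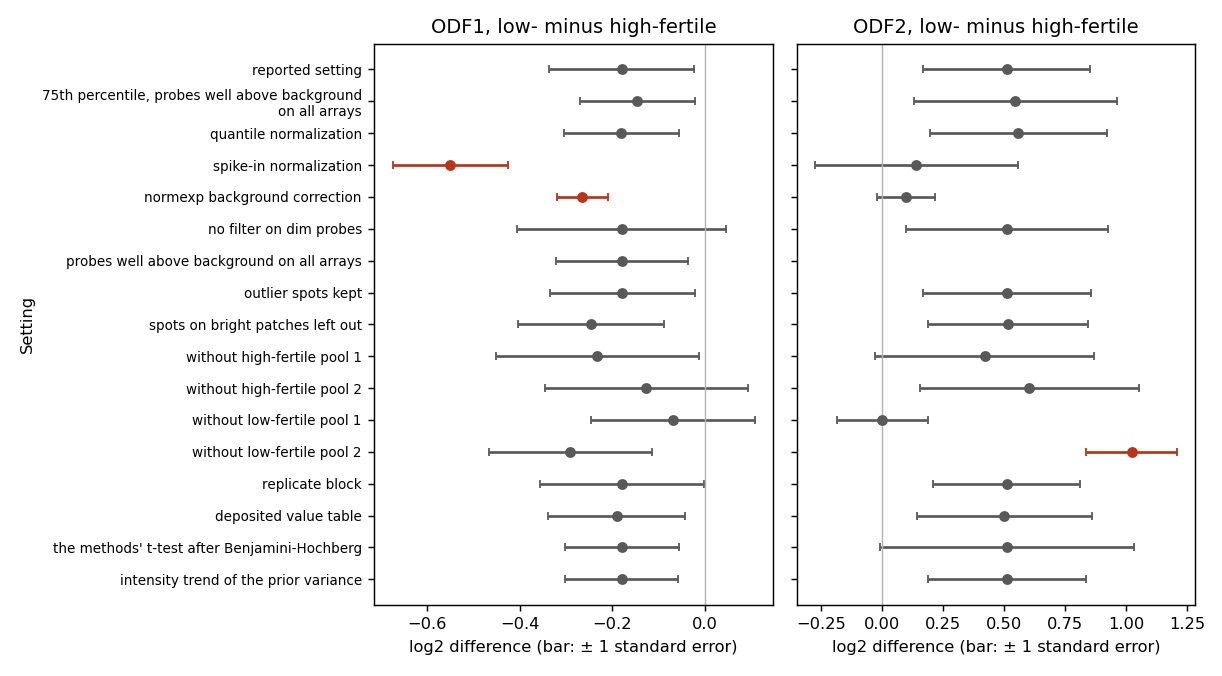
Low- minus high-fertile log2 difference (x axis) of ODF1 and of the fourth ODF2 probe under the reported setting and each alternative (y axis), with bars of 1 standard error and red for an adjusted p under 0.05. ODF1 lies between -0.55 and -0.07 and ODF2 between 0.00025 and 1.02, with 2 settings red for ODF1 and 1 for ODF2, and ODF2 has no value where a probe had to be well above background on all arrays.

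Other sperm structure genes were read from a list of 50, mostly of the tail and some of the head cytoskeleton, each by its brightest probe. Of the 50 genes, 40 were on the array by name, 15 were tested and 10 were well above background on all 4 arrays. In limma 1 of the 15 was lower with low fertility, 0 were higher and 14 did not pass, where 16.3% of 16549 genes tested by their brightest probe were lower and 9.6% higher, 25.9% in all. The median log2 difference of the 15 genes was 0.14, against 0.01 over those 16549 genes, and 9 of the 15 were above 0. By brightest probe the single differences ran from -0.79 to 0.58, and a second tested probe of GAPDHS, a glycolytic enzyme of the sheath, was at -1.10 where its brightest was at -0.15. The 1 lower gene had entered the test only through the high-fertile pools, and with the test limited to probes well above background in every pool 0 of 10 genes were lower and 3 higher (ODF3L1, SPAG4 and TSSK4), beside 4339 of 12552 probes called in that fit, 37.5% of them lower.

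The gene that passed was PRKAR2A, a regulatory subunit of protein kinase A that AKAP proteins bind. Signals of 27.4 and 28.4 with high fertility stood against 15.4 and 14.9 with low fertility. It was not well above background in either low-fertile pool. It was tested only because it was well above background in both high-fertile pools. Its call is therefore not independent of that filter, and its low-fertile level is uncertain. At the reported setting PRKAR2A was 1.73-fold lower with low fertility, with normalized log2 means of -0.40 for high and -1.20 for low fertility. The log2 difference was -0.79 (standard error 0.145, 95% interval -1.16 to -0.43, adjusted p = 0.0146, limma). With normexp the log2 difference of PRKAR2A was -0.29 (adjusted p = 0.0185, limma), where the offset of 50 exceeds its signals and shrinks ratios, and with spike-in scaling it was -1.17 (adjusted p = 0.00535, limma). PRKAR2A no longer passed without high-fertile pool 1 (log2 difference -0.81, adjusted p = 0.0676, limma) or without high-fertile pool 2 (log2 difference -0.78, adjusted p = 0.0772, limma), and its adjusted p was 0.188 in limma with no filter on dim probes and 0.0960 by the methods' t-test. PRKACA, the catalytic subunit of the kinase, was bright in all pools at 342, 360, 329 and 318, with a log2 difference of -0.03 (adjusted p = 0.876, limma).

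The following genes of that list were chosen after their values were seen. FSIP2, a protein that interacts with the fibrous sheath, had a processed signal of 41.7 and 40.7 with high fertility and 23.3 and 27.1 with low fertility (log2 difference -0.63, adjusted p = 0.0566, limma). ODF3L1, a relative of the outer dense fibre gene ODF3, had 27.7 and 25.6 with high fertility and 35.5 and 39.7 with low fertility (log2 difference 0.58, adjusted p = 0.0627, limma). FSIP2 had entered the test only through the high-fertile pools, where it is higher. Neither passed the threshold at the reported setting. Among alternatives that kept every pool, FSIP2 passed with spike-in normalization, with normexp and without bright patches. ODF3L1 passed among probes well above background in every pool. Both passed with the 75th percentile of such probes. OAZ3, a spermatid antizyme, was bright at 591 and 615 with high fertility and 533 and 447 with low fertility, with a log2 difference of -0.22 (adjusted p = 0.290, limma).

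On no array were 15 genes of the list well above background. Among them were further parts of the sheath and its enzymes (ROPN1L, SPA17, FSIP1, LDHC, PGK2 and ENO4), the outer dense fibre relative ODF2L, the head cytoskeleton genes CCIN, CYLC1 and CYLC2, and PRKAR1A. The remaining 10 genes were well above background in some pools only, without both pools of a group, and were not tested.

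**Figure D4:**
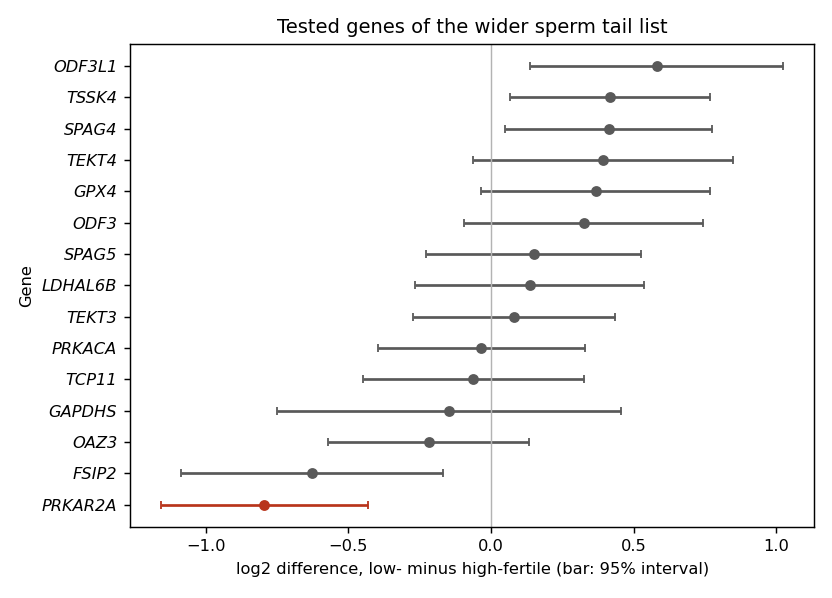
Low- minus high-fertile log2 difference (x axis) with its 95% interval for the 15 tested genes of the wider sperm tail list (y axis), in red where the adjusted p was under 0.05. PRKAR2A at -0.79 is the only red point, and the highest value is that of ODF3L1 at 0.58.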

How the data were processed

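The authors extracted the array images with Agilent Feature Extraction 11.5.1.1 and deposited, for each array, intensities on a linear scale, corrected for background, with surrogates at spots not above it. The authors also deposited a table of log2 values, shifted by the 75th percentile of each array in GeneSpring GX 12.6. From the intensities, log2 was taken, outlier spots were dropped, repeated spots were averaged and each array was shifted by the 75th percentile of its non-control probes (Python 3.11.15, pandas 2.3.3, numpy 2.4.6). Marks of the scanner software counted for a probe from a share of 0.5 of its spots. Well above background in both pools of either group were 21033 probes, and limma 3.58.1 (R 4.3.3) was fitted to these, with p-values adjusted by Benjamini-Hochberg over all of them. The fit was tested on simulated data. The number of arrays limits the precision. The labels and methods do not say which bulls made up which pool, so each pool counts as 1 replicate and p-values measure the spread between pools. For lists, a gene was read from its brightest probe by mean normalized value. The genes, lists and tests were chosen with earlier results of these data known. All 11 probes are named, and of the wider list up to 5 higher and 5 lower genes past an adjusted p of 0.05, with the 3 genes most like each member well above background on all arrays. The marker lists were spermatid and sperm, leukocyte, epithelial, red cell, and Sertoli and Leydig cell genes. Coordinates are those of Btau_3.1 in the files. Alternatives covered scaling, background, filters, spots, a replicate block, each pool left out, the deposited table and the methods' t-test.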

Additional observations from a re-analysis of the deposited data

How the results depend on the processing

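ODF1 was below 0 under 16 alternatives and ODF2 above 0 under 15, though without low-fertile pool 1 ODF2 lay at -0.01 relative to the median of all tested probes. ODF1 newly passed with spike-in normalization (-0.55) and normexp with its offset of 50 (-0.26). With each pool left out, ODF1 lay between -0.29 and -0.07 and ODF2 between 0.00025 and 1.02. The number of the 11 probes past the threshold was 1 with spike-in normalization, with normexp and without low-fertile pool 2 (0 to 1 with each pool left out), and 0 elsewhere. Over all probes it was 0 with no filter (9278 at an unadjusted p under 0.05) and 0 by the methods' t-test (6084 unadjusted). With each pool left out it ran from 2644 (without high-fertile pool 2) to 4989, with 2872 without high-fertile pool 1. Of the wider list, 3 genes passed with the 75th percentile of probes well above background in every pool (5094 of all probes did), 3 with spike-in normalization (7328), 5 with normexp (7295), 3 among probes well above background in every pool (4339), 2 without bright patches, 2 with the median over the tested probes of a gene, 0 without a filter and 0 by the methods' t-test, and 0 to 2 with each pool left out. The number of detected probes was 7 with the positive and significant mark in both pools of either group. It was 1 where well above background on all 4 arrays was required. The positive and significant mark was on 32226 to 42556 of all 51282 probes of each array. The share of lower probes among those called was 65.6%, and 37.5% among probes that were well above background in every pool and 92.1% with spike-in normalization. The labels state no pairing of pools by number. Pearson's r between the differences of pools 1 and 2 in each group was 0.0055 across 21024 probes, which are not independent replicates. With a single such difference in each group, that value cannot settle whether pools were paired. With a replicate block ODF1 was at -0.18 (adjusted p = 0.492, limma) and ODF2 at 0.51 (adjusted p = 0.255, limma). The cause of these changes was not tested. Signals near background limit the values of 9 of the 11 probes.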

Other observations

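A probe named by its transcript cluster, TC435320, is described in the array annotation as similar to human outer dense fibre protein 2 and lies 5793 bases beyond the last ODF2 probe. It was chosen after its values were seen and is not counted among the 11 probes. The high-fertile pools gave 15.9 and 38.9 and the low-fertile pools 25.1 and 13.1, with 2 of the 4 values well above background and a log2 difference of -0.37. It was not tested.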
